A study of Homo sapiens with 6 samples.

Results

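The TET dioxygenase family of human cells has 3 genes, TET1, TET2 and TET3, and all 3 were followed here in K562 cells, a human line established from a chronic myelogenous leukaemia. The genes were taken by symbol alone from the 23710 gene symbols counted in each library. The treated group has 3 libraries of cells that received 3FM-dC at 20 µM together with THU at 2 mM and were harvested 24 h later. The DMSO group has 3 libraries of cells that received the solvent of both agents for the same time. The labels give no genetic change of the cells, which were at passages 13 to 16 in medium with 10% serum. No group received either agent alone, so the effects of 3FM-dC and THU cannot be told apart, and nothing in the labels says that replicates were separate cultures, so every p-value below reflects how far these libraries vary, possibly for technical reasons alone. The series title speaks of a small-molecule activator of TET2, and the comparison here asks what happened to the transcripts of the enzyme family itself.

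TET enzymes use oxygen, ferrous iron and 2-oxoglutarate to oxidise the methyl group of 5-methylcytosine in DNA, first to 5-hydroxymethylcytosine and then to further products that base excision repair can replace with plain cytosine. TET1 and TET3 can carry a CXXC zinc finger that binds CpG-rich DNA, while TET2 lacks it and is brought to DNA by partner proteins. TET2 is among the most often mutated genes of myeloid malignancies, TET1 is best known from embryonic stem cells, and TET3 from the oocyte and the zygote.

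CpG dinucleotides are the sequence context in which TET enzymes find most of their substrate, and the starts of the 3 genes differ in them. The promoter of the annotated start that lies farthest upstream is shown for each gene, from 250 bases before to 50 bases after it, 5′ to 3′, with every CG in capitals (RefSeq sequences, GRCh38.p14).
TET1 (chr10:68560087-68560386, plus strand): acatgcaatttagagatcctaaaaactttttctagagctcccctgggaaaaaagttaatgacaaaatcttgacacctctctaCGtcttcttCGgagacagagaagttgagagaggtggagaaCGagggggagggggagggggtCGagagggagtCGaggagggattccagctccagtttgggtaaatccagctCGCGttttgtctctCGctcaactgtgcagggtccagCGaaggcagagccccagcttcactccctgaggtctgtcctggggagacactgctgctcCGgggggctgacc
TET2 (chr4:105145625-105145924, plus strand): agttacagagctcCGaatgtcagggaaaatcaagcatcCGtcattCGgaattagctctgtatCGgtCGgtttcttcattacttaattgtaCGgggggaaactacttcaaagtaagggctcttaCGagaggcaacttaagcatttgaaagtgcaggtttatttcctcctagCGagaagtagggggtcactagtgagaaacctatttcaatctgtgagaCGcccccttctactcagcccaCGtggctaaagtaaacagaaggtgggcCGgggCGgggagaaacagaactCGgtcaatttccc
TET3 (chr2:73984660-73984959, plus strand): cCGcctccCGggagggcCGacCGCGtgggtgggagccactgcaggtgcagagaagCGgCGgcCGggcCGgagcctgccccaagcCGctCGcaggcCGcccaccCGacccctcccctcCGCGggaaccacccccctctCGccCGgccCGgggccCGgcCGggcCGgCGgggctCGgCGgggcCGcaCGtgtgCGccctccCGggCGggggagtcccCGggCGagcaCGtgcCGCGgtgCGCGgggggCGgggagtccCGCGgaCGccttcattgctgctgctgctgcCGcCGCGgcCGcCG
These 300 bases held 10 CG for TET1, 13 for TET2 and 45 for TET3. Among 35116 RefSeq promoters of the same length the median was 14 CG, and 56.4% of them held at least 10, 51.7% at least 13 and 3.48% at least 45. Other annotated starts held 6 and 11 CG for TET1, 35 for TET2 and 33 for TET3. CG reads the same on both strands. Read counts per gene do not show which start K562 used, and methylation was not measured in these files.

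Depth was similar in all libraries, with between 19052821 and 20737363 counts in genes with 3FM-dC plus THU and between 18408826 and 22750278 with DMSO. Levels are given as CPM, reads per 1000000 counts after TMM scaling between libraries. All 8 erythroid markers that identify K562 were present, including globin genes and GATA1, and their summed level was between 3497 and 3687 CPM with 3FM-dC plus THU and between 6998 and 7180 CPM with DMSO. Of 12 markers of lymphoid, fibroblast, epithelial and endothelial cells, 3 had no count in any library, and the sum of all 12 lay between 76.2 and 83.2 CPM with 3FM-dC plus THU and between 119 and 121 CPM with DMSO. Most of that sum was EPCAM, with a mean of 62.0 CPM in treated cells and 103 CPM in DMSO cells. These marker levels moved with treatment, and their part in the TET results was not tested. A smaller number of cells of a type and less RNA per cell cannot be told apart in bulk libraries.

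The 3 genes did not move together. TET1 transcripts were 2.98-fold lower and TET2 transcripts 1.28-fold higher in treated cells, while TET3 transcripts were 1.13-fold higher with groups that overlapped. Genes were called changed at an adjusted p under 0.05 by edgeR's quasi-likelihood test over all 12339 genes tested. By that rule 66.4% of all tested genes were called. Those called higher made up 33.8% of the genes tested and those called lower 32.7%, and the call of each member is read against this background.

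TET1, the member with the strongest change, had 722, 607 and 758 reads in treated replicates 1, 2 and 3, against 1844, 1936 and 2010 reads in DMSO replicates 1, 2 and 3. As levels these were 37.0, 28.9 and 35.5 CPM with 3FM-dC plus THU and 102, 108 and 91.2 CPM with DMSO. The highest treated library was far below the lowest DMSO library. Groups that did not overlap, by any margin and in either direction, were seen for 70.0% of tested genes. The mean was 33.8 ± 4.30 CPM in treated cells and 101 ± 8.75 CPM in DMSO cells (SD, n = 3 each). The log2 fold change was -1.57, with a 95% confidence interval from -1.72 to -1.42 and an edgeR adjusted p of 3.54e-17. TET1 was thus 2.98-fold lower with 3FM-dC plus THU. Counting itself would give a coefficient of variation between 3.63% and 4.06% at the treated depths, against 12.7% observed between treated replicates, and between 2.23% and 2.33% at the DMSO depths, against 8.69% observed between DMSO replicates. Among all 12339 tested genes, 96 (0.778%), TET1 included, fell at least this far, and 766 (6.21%) changed at least this much in either direction.

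TET2, the gene named in the series title, had 463, 523 and 549 reads in the treated replicates and 345, 390 and 384 reads in the DMSO replicates. Its levels were 23.7, 24.9 and 25.7 CPM with 3FM-dC plus THU and 19.1, 21.9 and 17.4 CPM with DMSO. The groups did not overlap, although the lowest treated library and the highest DMSO library were close. The mean was 24.8 ± 1.01 CPM in treated cells and 19.5 ± 2.23 CPM in DMSO cells (SD, n = 3 each). TET2 rose by 0.35 on the log2 scale, with a 95% confidence interval from 0.17 to 0.54 and an edgeR adjusted p of 0.00115. On the linear scale this was 1.28-fold, with an interval from 1.12-fold to 1.45-fold. A rise of this size or larger was common, with 3339 tested genes (27.1%) at or above it. Treated replicates varied by 4.09%, no more than the counting error of between 4.27% and 4.65%, while DMSO replicates varied by 11.5% against a counting error of between 5.06% and 5.38%.

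TET3 had 1358, 1451 and 1585 reads in the treated replicates and 1250, 1170 and 1208 reads in the DMSO replicates. Its levels were 69.5, 69.1 and 74.2 CPM with 3FM-dC plus THU and 69.3, 65.6 and 54.8 CPM with DMSO. Treated replicate 2 lay below DMSO replicate 1, so the groups overlapped. The mean was 70.9 ± 2.87 CPM in treated cells and 63.2 ± 7.53 CPM in DMSO cells (SD, n = 3 each). The log2 fold change was 0.17, with a 95% confidence interval from 0.04 to 0.31 and an edgeR adjusted p of 0.0240. The call was lost without DMSO replicate 3 (log2 fold change 0.073, edgeR adjusted p = 0.310), without treated replicate 3 (0.13, edgeR adjusted p = 0.120) and with the Wald test of DESeq2 on all libraries (0.15, DESeq2 adjusted p = 0.0830), over a range of 0.000704 to 0.310 across the alternatives. TET3 is for that reason described here by its values only.

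**Figure D1:**
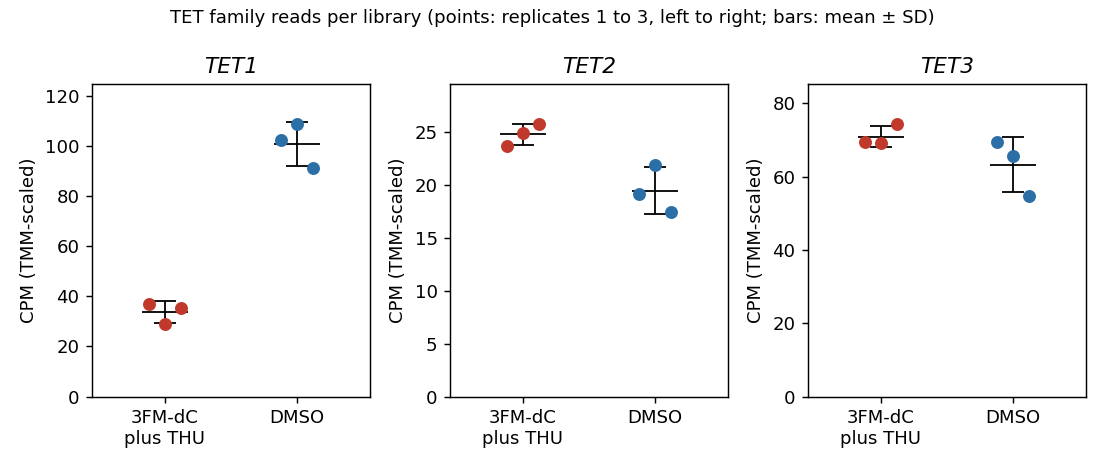
Level of TET1, TET2 and TET3 in CPM in each library, with 3FM-dC plus THU left of DMSO in each panel; points are replicates 1 to 3 and bars are the mean ± SD. The treated TET1 points lie between 28.9 and 37.0 CPM, far below the DMSO points, the treated TET2 points lie just above the DMSO points, and the TET3 points of both groups overlap.

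DMSO replicate 3 had the lowest level of all 3 genes within its group. On the log2 scale its difference from the mean of the other DMSO libraries was -0.21 for TET1, -0.22 for TET2 and -0.30 for TET3. All 3 genes have long transcripts, the longest annotated ones being 9288 bases for TET1, 10166 for TET2 and 11388 for TET3 (GENCODE 29). Among the 433 tested genes whose longest transcript was between 9000 and 12000 bases, the median of the same difference was -0.05, against 0.02 for 4456 genes under 3000 bases. The median log2 fold change between treated and DMSO cells was 0.12 for the same 433 genes and -0.04 for the 4456 short ones, beside 0.17 for TET3 and 0.35 for TET2. The part of transcript length in the TET values was not tested. Without DMSO replicate 3, TET2 was higher by 0.27 (edgeR adjusted p = 0.0188) and TET1 lower, with a log2 fold change of -1.64.

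A ratio of 2 genes within a library needs no scaling between libraries, and it asks directly whether members changed differently. TET2 had 0.641, 0.862 and 0.724 reads per TET1 read in treated replicates 1, 2 and 3, against 0.187, 0.201 and 0.191 in DMSO replicates 1, 2 and 3. The ratio was 3.82-fold higher with 3FM-dC plus THU, a difference of 1.93 in mean log2 ratio. TET3 had 1.88, 2.39 and 2.09 reads per TET1 read in the treated replicates, against 0.678, 0.604 and 0.601 in the DMSO replicates, a difference of 1.75. In every treated library TET3 thus had more reads than TET1, and in every DMSO library it had fewer. TET2 had 0.341, 0.360 and 0.346 reads per TET3 read in treated libraries, against 0.276, 0.333 and 0.318 in DMSO libraries. The difference for that ratio was 0.18, beside an SD of 0.04 between the treated and 0.14 between the DMSO libraries, and without DMSO replicate 1 it was 0.10. For all 3 ratios the groups did not overlap, and the two-sided exact permutation test gave p = 0.10 (0.10 after Benjamini-Hochberg adjustment over the 3 ratios), which is the smallest value that 3 libraries against 3 allow. No ratio could therefore reach a threshold of 0.05 in this design.

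**Figure D2:**
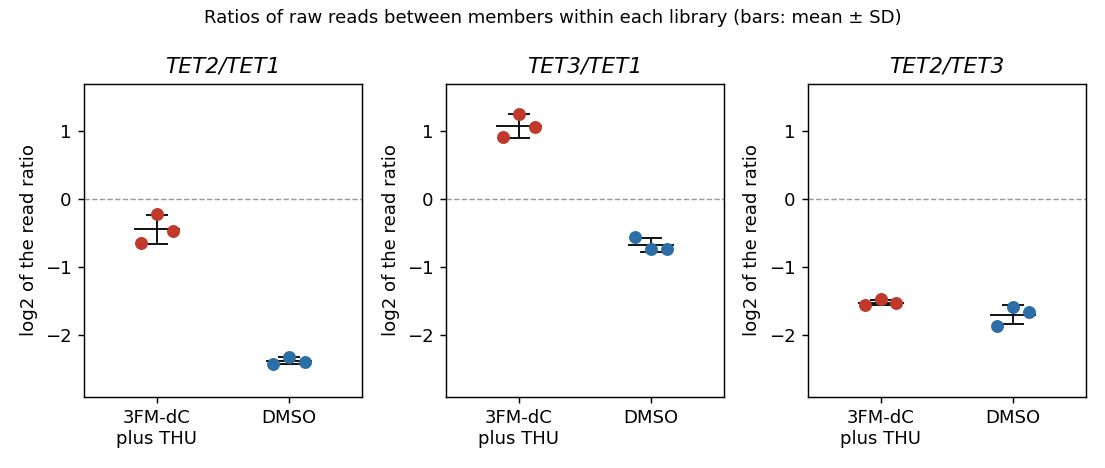
Log2 of the ratio of raw reads between 2 family members within each library, with 3FM-dC plus THU left of DMSO; points are libraries, bars are the mean ± SD, and the dashed line marks equal reads. The ratios to TET1 are shifted up by 1.93 for TET2 and by 1.75 for TET3 in treated libraries, while the ratio of TET2 to TET3 moves by 0.18.

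Levels of different genes can be compared only per length. With the union of exons annotated in GENCODE 29 as the length (9288 bases for TET1, 16474 for TET2 and 12271 for TET3), TET3 had the highest level per kb in treated cells, with 5.78 ± 0.234 CPM per kb. TET1 followed with 3.64 ± 0.463 CPM per kb and TET2 with 1.50 ± 0.0615 CPM per kb (SD, n = 3 each). In DMSO cells TET1 was highest with 10.8 ± 0.942 CPM per kb, before TET3 with 5.15 ± 0.614 and TET2 with 1.18 ± 0.136 CPM per kb (SD, n = 3 each). Each order held in all 3 libraries of its group, and neighbours in the order differed by more than their SDs. As shares of the summed level per kb, TET1 made up 33.2% ± 2.78 in treated cells and 63.1% ± 1.19 in DMSO cells. The share of TET3 was 53.0% ± 1.90 in treated cells and 30.0% ± 1.49 in DMSO cells, and that of TET2 was 13.8% ± 0.889 in treated cells and 6.88% ± 0.356 in DMSO cells. Since shares sum to the whole, the larger shares of TET2 and TET3 include the fall of TET1.

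The summed level of the family was 10.9 ± 0.609 CPM per kb in treated cells and 17.2 ± 1.60 CPM per kb in DMSO cells (SD, n = 3 each), 1.57-fold lower with 3FM-dC plus THU, and the groups did not overlap. With the longest coding sequence as the length (6408 bases for TET1, 6069 for TET2 and 5385 for TET3) the sums were 22.5 ± 1.07 in treated cells and 30.7 ± 2.94 CPM per kb in DMSO cells, a 1.36-fold difference. The order of the genes within each group was the same by coding length. In DMSO cells TET1 and TET3 then lay closer together, with 15.7 ± 1.37 CPM per kb for TET1 and 11.7 ± 1.40 CPM per kb for TET3. TET1 and TET2 did so in treated cells, with 5.27 ± 0.671 and 4.08 ± 0.167 CPM per kb. In treated replicate 2 these were 4.51 and 4.10 CPM per kb. As shares by coding length, TET1 made up 23.4% in treated and 51.3% in DMSO cells. TET3 made up 58.5% in treated and 38.3% in DMSO cells, and TET2 18.1% in treated and 10.5% in DMSO cells. The length of the transcripts that K562 makes was not measured. The size of these gaps and shares thus depends on the annotated length, while the change of each gene between groups does not. The annotation by which reads were assigned to genes is not stated, and its part in the counts was not tested.

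**Figure D3:**
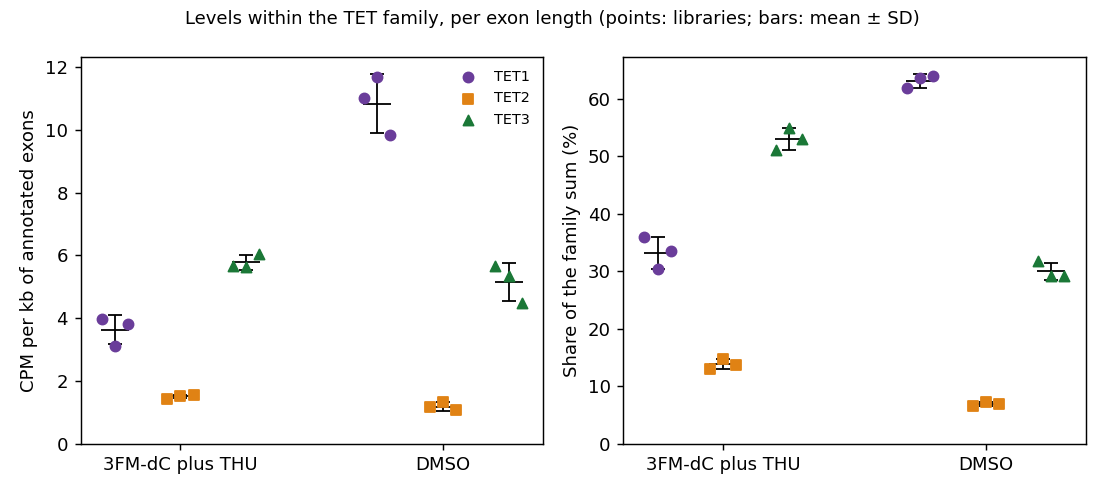
Left, CPM per kb of annotated exons for the 3 genes in each library; right, the share of each gene in the summed level per kb in percent; 3FM-dC plus THU is left of DMSO and bars are the mean ± SD. TET3 is on top in treated cells with a share of 53.0%, and TET1 is on top in DMSO cells with a share of 63.1%.

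The authors' deposited table compares a group B with a group A that its header does not name. In the authors' deposited table TET1 had a fold of 0.333 for B over A with an adjusted p of 1.59e-36, TET2 a fold of 1.26 with an adjusted p of 0.00169, and TET3 a fold of 1.11 with an adjusted p of 0.183. The same table thus called TET1 and TET2 at 0.05 and did not call TET3. For treated over DMSO the folds here were 0.336 for TET1, 1.28 for TET2 and 1.13 for TET3. B over A thus had the direction of treated over DMSO for each gene.

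Genes with the profile most like each member were sought over the 6 libraries among the 9785 genes that averaged 5 CPM or more. Likeness was the root mean square difference between log2 levels after each gene was centred on its own mean, and groups dominate such a measure. Among the nearest genes to TET1 was NEFH, the heavy neurofilament subunit (difference 0.06), which had 21.8 ± 3.55 CPM in treated cells and 62.4 ± 3.22 CPM in DMSO cells. INSIG1, a sterol-regulated protein of the endoplasmic reticulum, and RAB3IL1, an exchange factor for Rab GTPases, came after it. The nearest gene to TET2 was SCAPER (difference 0.02), with 5.75 ± 0.162 CPM in treated cells and 4.53 ± 0.611 CPM in DMSO cells. DNAJC3, a co-chaperone of the endoplasmic reticulum, and the zinc finger genes ZNF292 and ZNF555 followed. TET3 was nearest to XRN1, the cytoplasmic 5′ to 3′ exonuclease (difference 0.02), with 62.6 ± 3.19 CPM in treated cells and 56.2 ± 6.54 CPM in DMSO cells, before SMG1, a kinase of nonsense-mediated decay, PIGN and ARHGAP18. No family member was among the 4 nearest genes of another. TET3 stood at rank 877 for TET2, and TET2 at rank 1036 for TET3.

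Genes that act with the TET proteins were mixed. In a list of 24 partners and regulators, 20 passed the filter on low counts, of which 5 rose, 11 fell and 4 did not pass the test. The median log2 fold change was -0.12, against 0.01 for all genes tested. Among all tested genes 33.8% were called higher and 32.7% lower. Scaling by total counts instead gave 7 higher and 8 lower. OGT, the O-GlcNAc transferase that binds TET proteins, rose to 298 ± 4.10 CPM in treated cells, against 206 ± 4.51 CPM in DMSO cells (log2 fold change 0.53, edgeR adjusted p = 3.82e-13). SPI1, the myeloid transcription factor PU.1 that can bind TET2, rose by 1.13 on the log2 scale, with 34.4 ± 4.77 CPM in treated cells and 15.7 ± 1.39 CPM in DMSO cells. CUL4A, a scaffold of the CRL4 ubiquitin ligase that monoubiquitinates TET proteins, fell by 0.56 on the log2 scale. CAPN1, a calpain protease that can degrade TET proteins in mouse cells, fell by 0.43, while the other listed calpain gene, CAPN2, rose by 0.36. The CXXC-domain gene CXXC5, whose product can bind TET2, had 72.3 ± 3.20 CPM in treated cells and 73.0 ± 3.63 CPM in DMSO cells (edgeR adjusted p = 0.837). CXXC4, which arose from the CXXC part of an ancestral TET2 gene, averaged 0.0327 CPM in treated cells and had no count in DMSO cells, where 3 counts in a library would be between 0.136 and 0.168 CPM.

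Genes that supply or limit the cofactors of TET enzymes were mostly lower. Of 24 such genes 23 were tested, and 15 fell, 5 rose and 3 did not pass, with a median log2 fold change of -0.32. Over all tested genes 32.7% were called lower and 33.8% higher, and the median was 0.01. The list mixes genes that supply a cofactor with genes that limit one, so its count and median do not show whether supply fell. OGDH, which uses 2-oxoglutarate, had a log2 fold change of -0.29, and the iron exporter gene SLC40A1 had -1.11. Both genes of the NADP-dependent enzymes that make 2-oxoglutarate in the cytosol and the mitochondrion rose. IDH1 had 168 ± 2.65 CPM in treated cells and 74.1 ± 4.38 CPM in DMSO cells, and IDH2 had 62.3 ± 3.21 CPM in treated cells and 46.3 ± 2.29 CPM in DMSO cells (edgeR adjusted p = 4.87e-07). GPT2, a mitochondrial alanine transaminase that also yields or uses 2-oxoglutarate, rose by 2.60 on the log2 scale, and GOT1, the cytosolic aspartate transaminase, by 1.09. Of other genes for enzymes that make 2-oxoglutarate in mitochondria, named here after their values were seen, 4 fell and GLUD1 did not pass. GLUD1 had 176 ± 4.47 CPM in treated cells and 176 ± 6.59 CPM in DMSO cells (edgeR adjusted p = 0.999). The genes of the NAD-dependent isocitrate dehydrogenase had log2 fold changes of -0.37 for IDH3A, -0.77 for IDH3B and -0.58 for IDH3G, and GOT2, the mitochondrial aspartate transaminase, had -0.76 (highest edgeR adjusted p of the 4 genes 3.38e-07). SLC2A1, a glucose transporter that can carry oxidised vitamin C, fell to 165 ± 2.41 CPM in treated cells, against 305 ± 7.66 CPM in DMSO cells. Other listed vitamin C carriers did not fall with it. SLC23A2 had a log2 fold change of 0.30 (edgeR adjusted p = 0.00807) and SLC2A3 one of -0.03 (edgeR adjusted p = 0.555). TFRC, the transferrin receptor through which cells take up iron, fell by 0.88 on the log2 scale. TFRC also counts among the K562 markers above.

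For genes that remove the oxidised bases or repair the gap, 14 of 16 listed were tested, with 3 higher, 3 lower and 8 not past the test. Under total counts 5 were higher, 3 lower and 6 not past the test. Over all tested genes 66.4% were called in either direction. The median log2 fold change was -0.01, and 0.08 with total counts, where all genes had a median of 0.10. TDG, the glycosylase that excises the last oxidation products, fell to 107 ± 7.00 CPM in treated cells, against 133 ± 10.1 CPM in DMSO cells (log2 fold change -0.31, edgeR adjusted p = 1.10e-05). PARP1, which senses DNA nicks, fell by 0.46 and the uracil glycosylase gene UNG by 0.59 on the log2 scale. XRCC1, a repair scaffold, rose by 0.27 and the ligase gene LIG3 by 0.20.

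Among 9 genes whose products have been reported to bind 5-hydroxymethylcytosine, 7 were tested, of which 2 rose, 1 fell and 4 did not pass (4 higher and 1 lower with total counts). Of all tested genes 33.8% were called higher and 32.7% lower. WDR76 rose by 0.15 on the log2 scale, while the mismatch repair gene MSH6 fell by 0.29. All 4 tested genes of the opposing reaction, DNA methylation, fell, out of 5 listed, beside 32.7% of all tested genes called lower. DNMT1, which copies methylation after replication, fell to 296 ± 11.5 CPM in treated cells, against 414 ± 13.1 CPM in DMSO cells. UHRF1, its partner at replicated DNA, fell by 0.59. Their median log2 fold change was -0.47, against 0.01 for all genes tested, and the fall of TET1 was larger than that of any of them.

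**Figure D4:**
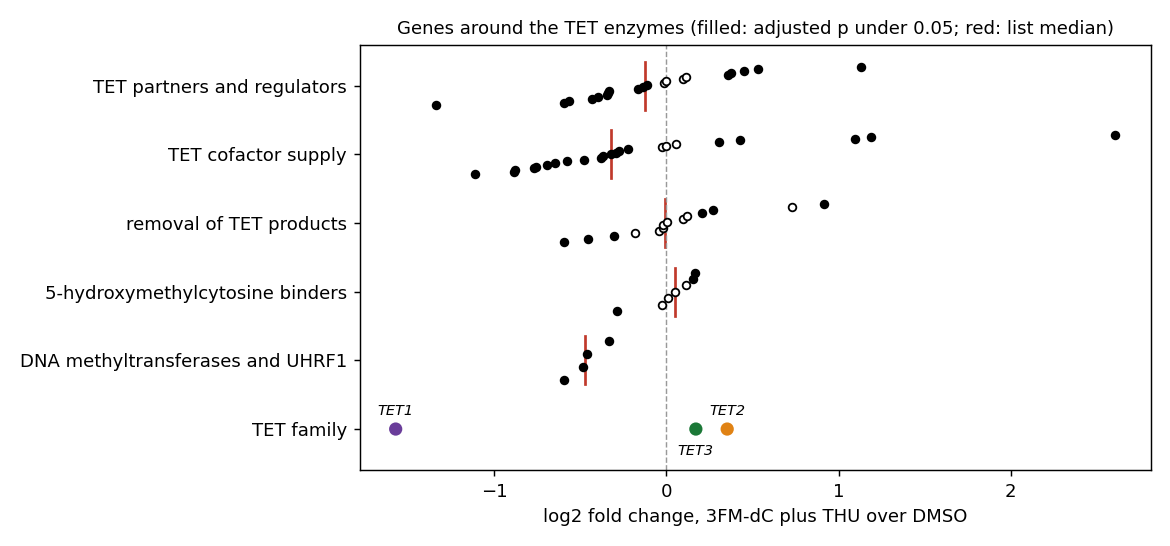
Log2 fold change of 3FM-dC plus THU over DMSO for the tested genes of 5 lists and for the TET family; each point is a gene, filled where the edgeR adjusted p was under 0.05 and open where it was not, and red bars are list medians. TET1 lies at -1.57, left of every tested gene in these lists, while TET2 lies at 0.35 and TET3 at 0.17.

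**Figure D5:**
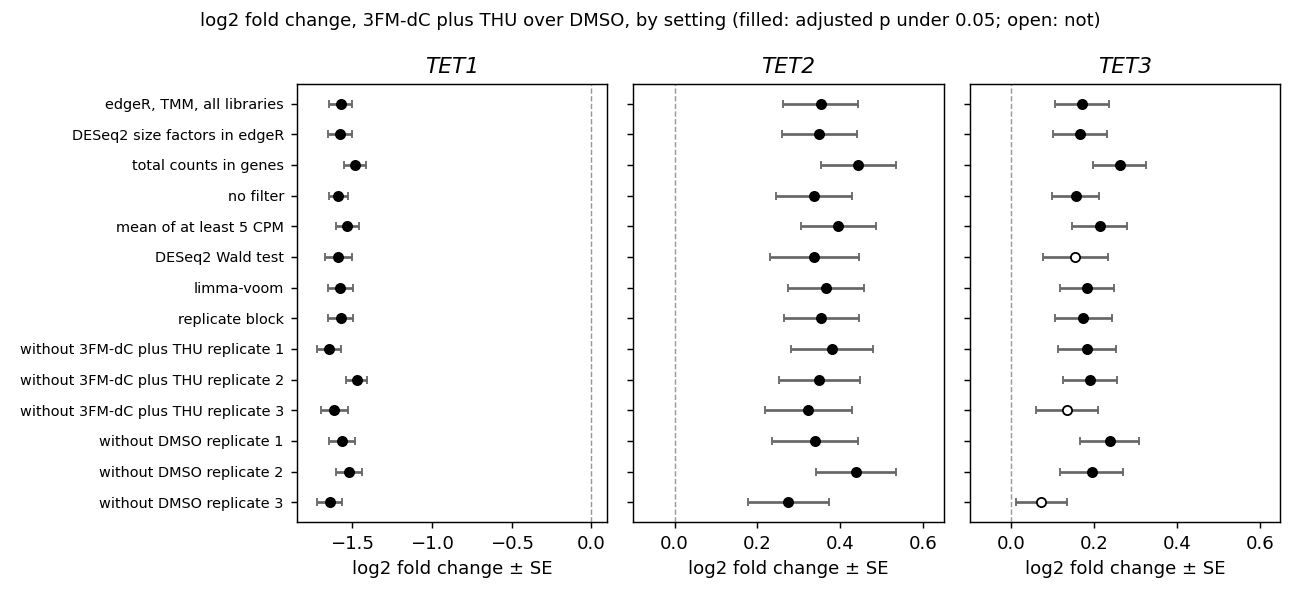
Log2 fold change ± SE of each TET gene under the edgeR fit with TMM scaling and under each alternative; filled points have an adjusted p under 0.05 and open points do not. TET1 and TET2 are filled throughout, and TET3 is open with DESeq2, without treated replicate 3 and without DMSO replicate 3.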

How the data were processed

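RNA of K562 cells was sequenced from mRNA libraries made from 1000 ng of RNA with a directional kit, per the labels. The deposited files of the authors give unnormalised read counts by gene symbol, one file a library. STAR, Cufflinks, DESeq2 and the build hg19 are listed without roles, per the submitters' processing notes. How reads were assigned to genes, with which strand setting and annotation, is not stated in the sources used here. TET2-AS1 is annotated on the opposite strand of TET2 and AC110801.1 on that of TET3, and either could share reads if strand was ignored. COX20P1 and RPS3AP37 lie within TET1 on its own strand, where strand would not separate reads. None of the 4 was analysed here. Rows of reads in no feature (between 10.9% and 13.1% of all counts) or ambiguous (between 2.27% and 2.38%) were left out. Per the file headers, a further table by the authors compares 2 groups by a fold ratio and by raw and adjusted p-values.

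The quasi-likelihood test of edgeR 4.0.16 (R 4.3.3) was fitted over 12339 genes that passed filterByExpr (minimum count 10), with TMM factors, treatment as the only term and Benjamini-Hochberg adjustment over all of them, and was tested on simulated data. The alternatives used DESeq2 1.42.0, limma 3.58.1, other scalings and filters, a replicate block and the removal of each library. For the edgeR fits a standard error is the size of the log2 fold change divided by the root of F. For DESeq2 and limma it is the standard error from their own fits. Replicate pairs differed beyond counting noise (chi-square per degree of freedom between 2.38 and 6.22) and were kept as separate samples. Ratios were compared with an exact permutation test. Lengths came from GENCODE 29 by symbol, with 92.1% of tested genes matched for the length groups, which were added after the data were seen. From each list, up to 2 genes that rose and 2 that fell with the smallest p were named, together with OGT, CXXC4, CXXC5, IDH1, IDH2, TDG and DNMT1, and the 4 genes most like each TET gene. The members and lists were chosen with earlier results of these data known. Likeness used log2(CPM + 0.5). Some genes under these rules are not reported here, and the counts of lists include them.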

Additional observations from a re-analysis of the deposited data

How the results depend on the processing

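The TET1 fall and the TET2 rise kept their direction and stayed under an adjusted p of 0.05 in all 13 alternatives each, with log2 fold changes from -1.64 to -1.47 for TET1 and from 0.27 to 0.44 for TET2 and a highest adjusted p of 0.0188 for TET2. TET3 kept its direction in all 13 and its call in 10. The call was lost with DESeq2 (log2 fold change 0.15) and without either of 2 libraries, with values from 0.073 to 0.24 when each library was left out, and the cause was not tested. Scaling by total counts moved the median of all genes from 0.01 to 0.10 and gave 0.26 for TET3 and 0.44 for TET2. The count of changed genes lay between 6948 and 8707, but the number of genes tested also differed. The lowest count was out of 9785 genes that averaged at least 5 CPM, and the highest was out of 17781 genes with no filter. With the longest coding sequence as length, which was chosen after seeing the data, the level ratio of TET1 to TET3 was 0.400 in treated and 1.34 in DMSO cells, and that of TET3 to TET2 was 3.23 in treated and 3.67 in DMSO cells. With the longest transcript, also chosen after seeing the data, TET1 to TET3 was 1.96 in DMSO cells, and TET3 to TET2 was 2.56 in treated and 2.91 in DMSO cells. Exon unions gave 0.629 and 3.85 in treated cells and 2.11 and 4.37 in DMSO cells. Coding lengths from RefSeq proteins were not run. With a replicate block TET1 had -1.57, TET2 0.35 and TET3 0.17 (edgeR adjusted p = 0.0303), and 8050 genes changed. Same-numbered libraries did not deviate together (correlations from -0.06 to 0.00), so the numbers are not taken as pairs.

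TET2 had the fewest reads of the family, between 345 and 549 in a library, which gives a counting error between 4.27% and 5.38%. A single dose and time were compared, with no arm for THU alone.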
